A study of Mus musculus with 4 samples.

Results

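The 35 mitosis and kinetochore genes described here are the proteins that carry a cell from the end of DNA replication through chromosome segregation to cytokinesis. They were chosen by name, and all 35 were found among the 36088 genes of the deposited table. Their mRNA was measured by RNA sequencing in male germ cells of wild-type mice, sorted from fetal testes in culture. Cultures received CBR-5884, an inhibitor of serine metabolism known to act on Phgdh, which starts the making of serine from a glycolysis intermediate, or the solvent DMSO, which served as the control; the sample titles give day 14 for both. Each condition had 2 libraries, which the series' design text calls biological replicates. The sources used here do not say how testes were shared out between cultures or how the cells were sorted, so the p-values below measure the spread between these libraries, whatever its source. The table marks its libraries with the numbers 2 and 4 within each condition, and they are called by those numbers here.

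In a dividing cell, cyclin A and cyclin B switch on the kinase Cdk1, which drives chromosome condensation and spindle formation. Each chromosome is held by a kinetochore, built on nucleosomes with the histone variant Cenpa and joined to microtubules by the Ndc80 complex, while the spindle checkpoint holds back anaphase until all kinetochores are attached. The anaphase-promoting complex, an E3 ubiquitin ligase, then marks cyclin B and securin for destruction, sister chromatids part and the cell divides. In the testis, male germ cells of the fetus stop dividing for a time and resume mitosis as spermatogonia. The level of these mRNAs thus depends in part on how many cells of a sample are cycling. In bulk RNA a smaller share of cycling cells and less mRNA per cycling cell cannot be told apart.

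All 35 genes were expressed in every library, and none passed the test between CBR-5884 and DMSO. Their mean levels over the 4 libraries lay between 24.5 and 441 TPM, a measure of transcript abundance per length and relative to the library total. Of the 35, 0 were called higher and 0 lower with CBR-5884 (limma, Benjamini-Hochberg adjusted p under 0.05 over all genes), and the smallest adjusted p among them was 0.998. Of all 14920 genes tested 0 were called (0%), with adjusted p of 0.0965 or more. Spc24 and Pttg1, 2 of the 35 genes (5.71%), had an unadjusted p under 0.05, as did 546 of all tested genes (3.66%). The 95% interval of the log2 fold change lay within ±0.5, or 1.41-fold, for 35 of the 35 genes. When variances were fitted without a trend on level, it did so for 33 of the 35. In that fit 0 of the 35 had an unadjusted p under 0.05 (limma), beside 593 of all tested genes. With libraries set to equal totals 1 did, beside 527 of all tested genes.

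**Figure D1:**
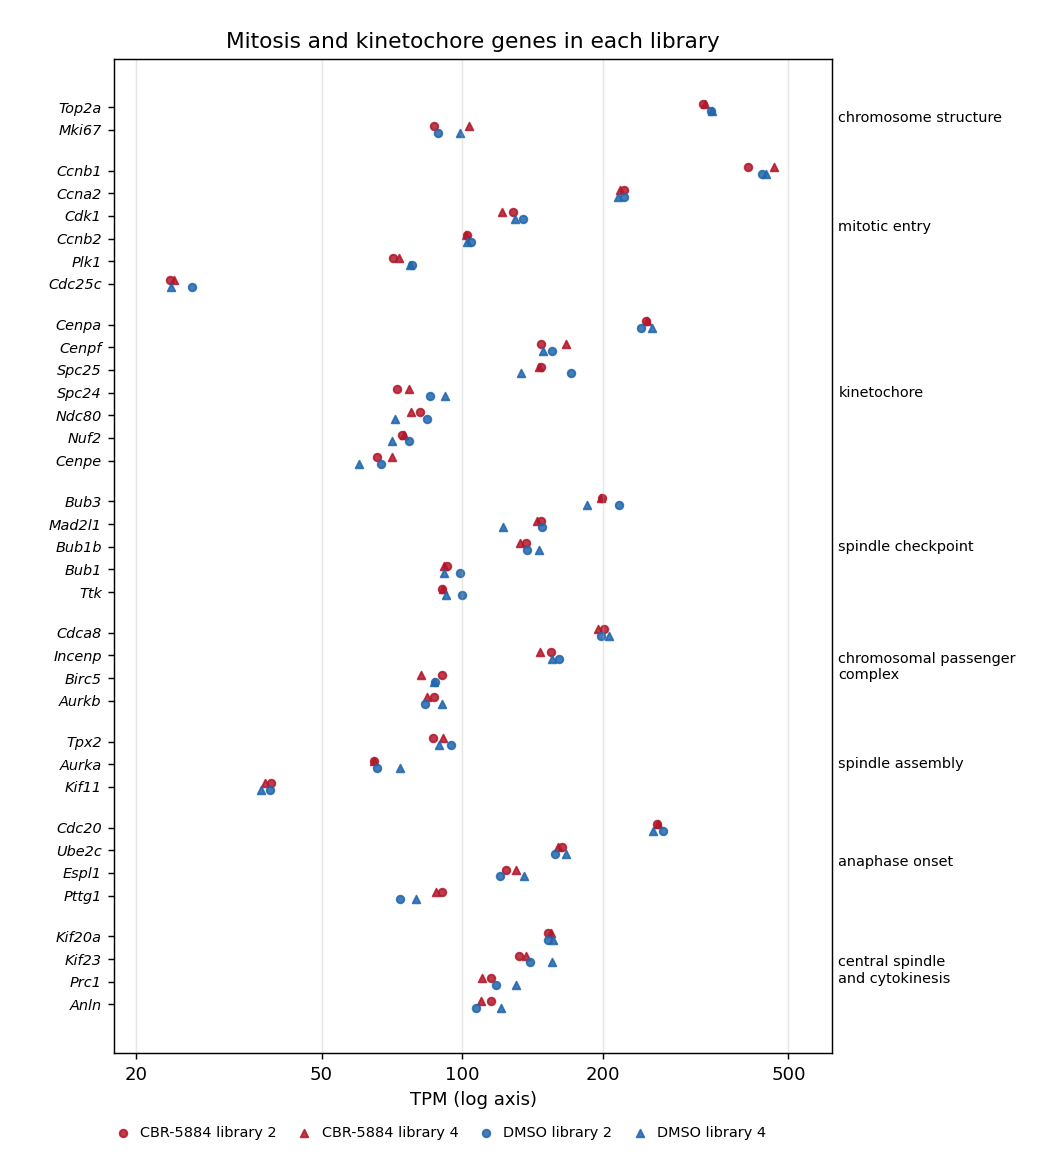
Level of each of the 35 genes in TPM (log axis) in the 4 libraries, with CBR-5884 in red above DMSO in blue, circles for library 2 and triangles for library 4, ordered by role and then by mean level. Levels span 24.5 TPM (Cdc25c) to 441 TPM (Ccnb1), and the spread of the 4 points of a gene is small beside the distance between genes.

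Promoters of many mitotic genes carry the cell cycle genes homology region (CHR), a short element through which the DREAM and MMB complexes act, often next to CCAAT boxes bound by NF-Y. Sequence of the region before the start was available from RefSeq (GRCm38.p6) for 28 of the 35 genes, in 30 windows of 300 bases, 250 before and 50 after the annotated start; Aurkb, Ccna2, Cdc25c, Incenp, Kif20a, Spc24 and Tpx2 had no entry. The letters TTTGAA or TTTAAA, the forms searched for the CHR, were found on either strand in 26 of the 30 windows (86.7%), against 27.6% of all 32851 windows and 19.4% of the windows of tested genes. The letters CCAAT, on either strand, were in 24 of the 30 windows (80.0%), against 37.4% of all windows and 38.5% of those of tested genes. Both were present in 23 windows (76.7%), against 10.7% of all windows and 7.98% of those of tested genes. A match says only that these letters are in the window, matches were counted at each position where they begin, and 1 base may belong to 2 matches. The median GC content was 59.0% in the windows of the 28 genes, 52.7% in all windows and 60.7% in those of tested genes.

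Stretches of 120 bases that end just before the start are shown for 4 genes of different roles, as examples of how the letters are placed; capitals mark CHR and CCAAT letters, which on the opposite strand read TTCAAA and ATTGG. They lie at chr11:99024190-99024309 (Top2a, minus strand), chr10:69352913-69353032 (Cdk1, minus strand), chr4:118437344-118437463 (Cdc20, minus strand) and chr19:37376262-37376381 (Kif11, plus strand).
Top2a: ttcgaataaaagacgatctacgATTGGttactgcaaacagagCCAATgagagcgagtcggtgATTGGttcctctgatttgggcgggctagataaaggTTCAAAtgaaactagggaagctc
Cdk1: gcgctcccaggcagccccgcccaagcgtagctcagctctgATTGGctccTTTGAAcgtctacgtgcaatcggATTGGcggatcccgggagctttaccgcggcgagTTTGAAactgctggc
Cdc20: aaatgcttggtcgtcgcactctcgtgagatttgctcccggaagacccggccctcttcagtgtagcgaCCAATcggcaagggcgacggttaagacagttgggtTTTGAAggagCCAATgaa
Kif11: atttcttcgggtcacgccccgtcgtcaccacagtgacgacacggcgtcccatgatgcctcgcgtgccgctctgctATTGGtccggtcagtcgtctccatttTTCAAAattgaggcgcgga
In these stretches the CHR letters nearest to the start begin 23 bases before it in Top2a, 15 in Cdk1, 18 in Cdc20 and 19 in Kif11, each with CCAAT letters within the same 120 bases. Over the 30 windows, 23 had CHR letters beginning within 50 bases of the start on either side. The windows of Nuf2, Mad2l1 and Pttg1 held neither motif, and that of Bub1 held CCAAT letters alone.

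**Figure D2:**
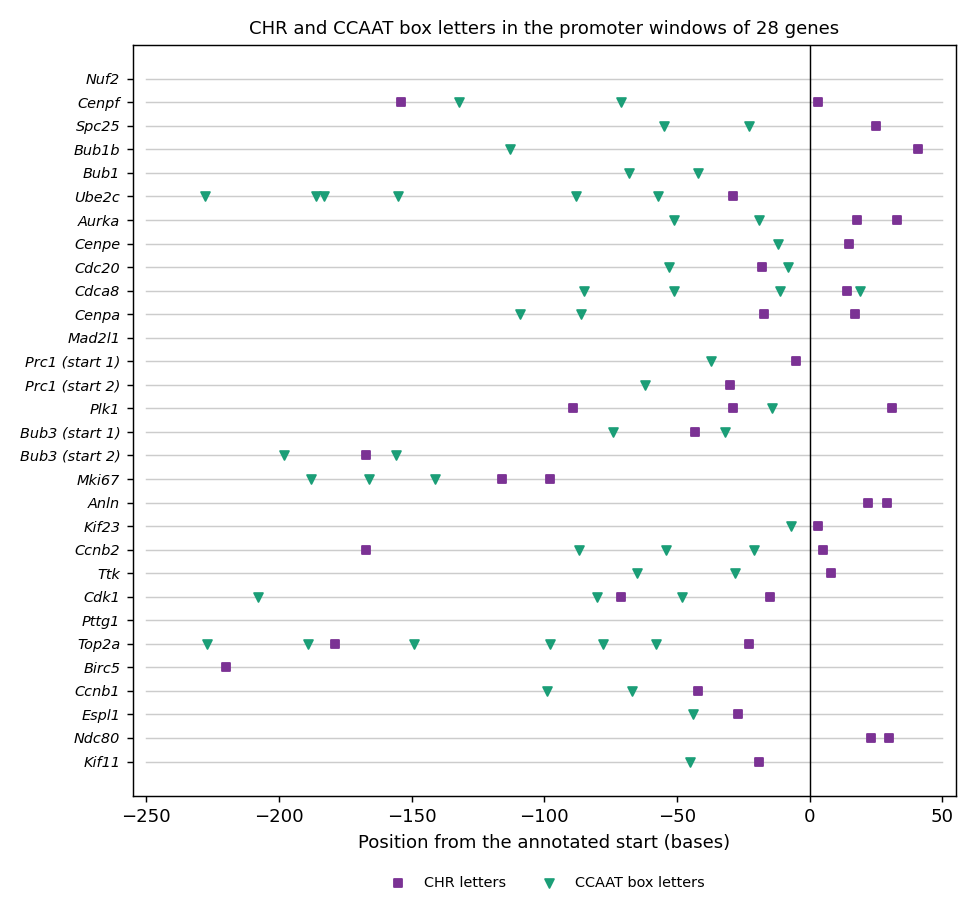
Position of CHR letters (purple squares) and CCAAT letters (green triangles) in the 30 promoter windows of 28 genes, in bases from the annotated start (vertical line); Prc1 and Bub3 have 2 annotated starts each. CHR letters are present in 26 windows and in 23 of them begin within 50 bases of the start, a position not counted in windows of other genes.

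Genes of chromosome structure and of mitotic entry ran from the most abundant of the set, Ccnb1, to the least, Cdc25c, and 0 of them passed the test. Top2a, the topoisomerase that disentangles sister DNA, had 328 and 331 TPM in the CBR-5884 libraries, against 342 and 344 TPM in the DMSO libraries. Both CBR-5884 libraries were lower, by 1.04-fold, with a 95% interval of the log2 fold change from −0.22 to 0.11. Mki67, which coats mitotic chromosomes and is the common proliferation marker, averaged 95.2 ± 11.5 TPM with CBR-5884 and 93.9 ± 7.32 TPM with DMSO (SD, n = 2). Ccnb1, cyclin B1 and the most abundant gene of the set, had 410 and 465 TPM in the CBR-5884 libraries, compared with 439 and 448 TPM in the DMSO libraries. The DMSO libraries lay between the CBR-5884 libraries, and the log2 fold change was −0.02 (SE 0.09, 95% interval −0.23 to 0.19). Its partner Cdk1, the mitotic kinase, had 128 and 121 TPM in the CBR-5884 libraries, against 135 and 130 TPM in the DMSO libraries. The groups did not overlap, but the interval of its log2 fold change, −0.27 to 0.10, spans 0.

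Plk1, the polo-like kinase that acts at entry, at centrosomes and at kinetochores, had 71.2 and 73.1 TPM in the CBR-5884 libraries, against 78.3 and 77.4 TPM in the DMSO libraries. Both CBR-5884 libraries were lower, with a log2 fold change of −0.11 (SE 0.08, interval −0.30 to 0.09). Ccna2, cyclin A2, averaged 220 ± 2.88 TPM with CBR-5884 and 219 ± 4.63 TPM with DMSO, and Ccnb2, cyclin B2, averaged 102 ± 0.25 and 104 ± 1.52 TPM in the same order (SD, n = 2). Cdc25c, a phosphatase that removes inhibitory phosphates from Cdk1, was the lowest gene of the set, at 23.9 ± 0.37 TPM with CBR-5884 and 25.1 ± 1.81 TPM with DMSO (SD, n = 2). Of the 6 genes of mitotic entry 0 passed the test, and their log2 fold changes ran from −0.11 to 0.01.

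The 7 kinetochore genes included Spc24, which had the largest fold change of the set. Spc24, a subunit of the Ndc80 complex encoded on chromosome 9 from 21755442 to 21760303 (GRCm38), had 72.7 and 77.1 TPM in the CBR-5884 libraries, against 85.5 and 91.8 TPM in the DMSO libraries. The groups did not overlap, and the log2 fold change of −0.24 (SE 0.09, interval −0.45 to −0.03) had an unadjusted p of 0.0316 and an adjusted p of 0.998 (limma). For the other subunits of this 4-protein complex the groups overlapped. Spc25, its direct partner, averaged 147 ± 0.88 TPM with CBR-5884 and 153 ± 26.3 TPM with DMSO, where library 2 had 171 TPM and library 4 had 134 TPM (SD, n = 2). Ndc80, which holds the microtubule, averaged 79.6 ± 2.59 TPM with CBR-5884 and 77.9 ± 8.63 TPM with DMSO, and its partner Nuf2 averaged 74.6 ± 0.47 and 73.9 ± 4.52 TPM in the same order (SD, n = 2). Per transcript length, Ndc80, Nuf2 and Spc24 were thus at similar levels, with means over all libraries of 78.7, 74.3 and 81.8 TPM, while Spc25 had 149.7 TPM. That the difference of Spc24 itself departs from that of its partners was not tested.

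Cenpa, the histone H3 variant that marks centromeres, had 248.0 and 248.8 TPM in the CBR-5884 libraries, within the range of the 242 and 255 TPM of DMSO libraries 2 and 4. It had the smallest fold change of the 35, with an interval of −0.17 to 0.18. Cenpe, a kinesin that moves chromosomes to the spindle equator, had 65.8 and 70.6 TPM in the CBR-5884 libraries, against 67.1 and 60.0 TPM in the DMSO libraries; the groups overlapped, at a log2 fold change of 0.10 (interval −0.13 to 0.34). Leaving out CBR-5884 library 4 gave 0.0526 and leaving out CBR-5884 library 2 gave 0.1526, while 0.1814 and 0.0238 were found when DMSO library 2 or DMSO library 4 was dropped. Cenpf, a large protein of the outer kinetochore, averaged 157 ± 13.7 TPM with CBR-5884 and 152 ± 4.92 TPM with DMSO (SD, n = 2). Fold changes were positive for 5 of these 7 genes and negative for 2, and 0 passed the test.

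Among the 5 spindle checkpoint genes, the DMSO libraries lay further from each other than the CBR-5884 libraries did. Mad2l1 (Mad2), which captures Cdc20 when kinetochores are unattached, had 147 and 145 TPM in the CBR-5884 libraries, against 148 and 122 TPM in the DMSO libraries. DMSO library 4 alone was low, and the log2 fold change was 0.12 with all libraries (interval −0.14 to 0.38) but −0.02 without DMSO library 4 and 0.26 without DMSO library 2. Bub3, the small WD-repeat protein that brings Bub1 and Bub1b to kinetochores, had 200 and 198 TPM in the CBR-5884 libraries, between the 217 and 185 TPM of DMSO libraries 2 and 4. Ttk (Mps1), the kinase at the top of the checkpoint, had 90.6 and 91.2 TPM in the CBR-5884 libraries, against 100.2 and 92.5 TPM in the DMSO libraries. Bub1b (BubR1), which with Mad2l1 blocks Cdc20, had 136.8 and 133.4 TPM in the CBR-5884 libraries, against 137.5 and 146.0 TPM in the DMSO libraries. Ttk and Bub1b were lower in both CBR-5884 libraries, with log2 fold changes of −0.08 and −0.07. The nearest values of the groups lay close, at 91.2 against 92.5 TPM for Ttk and 136.8 against 137.5 TPM for Bub1b. Leaving out 1 library gave −0.1383 (without DMSO library 4) to −0.0243 (without DMSO library 2) for Ttk, and −0.1114 (without DMSO library 2) to −0.0252 (without DMSO library 4) for Bub1b. Bub1, the kinase that marks inner centromeres, averaged 92.2 ± 0.82 TPM with CBR-5884 and 95.3 ± 5.42 TPM with DMSO (SD, n = 2). Of the 5 checkpoint genes 0 passed the test.

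The chromosomal passenger complex corrects wrong attachments and later directs cytokinesis, and its 4 genes had log2 fold changes of −0.02 to −0.07, which were positive for 3 of them at equal library totals; 0 passed the test. Cdca8 (borealin), its targeting subunit and the most abundant of them, had 201 and 196 TPM in the CBR-5884 libraries, compared with 198 and 206 TPM in the DMSO libraries, so the groups overlapped. Incenp, the scaffold of the complex, had 154.8 and 146.7 TPM in the CBR-5884 libraries, against 160.9 and 155.9 TPM in the DMSO libraries. Both CBR-5884 libraries were lower, with an interval of −0.25 to 0.11. The kinase Aurkb averaged 85.7 ± 1.94 TPM with CBR-5884 and 86.9 ± 4.93 TPM with DMSO, and Birc5 (survivin), its partner, averaged 86.1 ± 6.21 and 87.2 ± 0.28 TPM in the same order (SD, n = 2).

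Among the spindle assembly genes, Aurka, the kinase of centrosomes and spindle poles, had 64.8 and 64.9 TPM in the CBR-5884 libraries, against 65.7 and 73.7 TPM in the DMSO libraries. The groups stood apart by less than 1 TPM at their nearest values, and the log2 fold change was −0.10 (interval −0.33 to 0.13), against −0.019 without DMSO library 4 and −0.182 without DMSO library 2. Tpx2, which activates Aurka and nucleates microtubules, had 86.6 and 91.2 TPM in the CBR-5884 libraries, compared with 94.8 and 89.3 TPM in the DMSO libraries. Kif11 (Eg5), the kinesin that pushes spindle poles apart, averaged 38.5 ± 0.79 TPM with CBR-5884 and 37.9 ± 1.16 TPM with DMSO (SD, n = 2). Of these 3 genes 0 passed the test.

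The anaphase genes held the 1 gene of the set that was higher in both CBR-5884 libraries as deposited. Pttg1 (securin), the inhibitor that keeps separase inactive until anaphase (chromosome 11, 43420250 to 43426251), had 90.6 and 88.1 TPM in the CBR-5884 libraries, against 73.6 and 79.8 TPM in the DMSO libraries. Its log2 fold change of 0.22 (SE 0.08, interval 0.01 to 0.42) had an unadjusted p of 0.0417 and an adjusted p of 0.998 (limma). Espl1, the separase that securin holds, averaged 127 ± 4.13 TPM with CBR-5884 and 128 ± 10.3 TPM with DMSO (SD, n = 2). Cdc20, the activator of the anaphase-promoting complex, had 262.0 and 262.4 TPM in the CBR-5884 libraries, between the 268.8 and 256.8 TPM of DMSO libraries 2 and 4. Ube2c, the ubiquitin-conjugating enzyme of that complex, had 163.4 and 160.5 TPM in the CBR-5884 libraries, compared with 157.9 and 167.1 TPM in the DMSO libraries. Cdc20 and Ube2c were, with Cenpa, the 3 genes with the smallest fold changes. Of the 4 anaphase genes 0 passed the test.

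The 4 genes of the central spindle and cytokinesis had negative fold changes, 2 of which were positive at equal library totals, and 0 passed the test. Prc1, which bundles the microtubules of the central spindle, had 115.1 and 110.1 TPM in the CBR-5884 libraries, against 117.9 and 130.5 TPM in the DMSO libraries. Kif23, the kinesin of the centralspindlin complex, had 132.1 and 137.1 TPM in the CBR-5884 libraries, against 139.7 and 155.9 TPM in the DMSO libraries. For both the groups did not overlap and DMSO library 4 was the highest; their log2 fold changes were −0.14 (interval −0.35 to 0.07) and −0.13 (interval −0.34 to 0.08) with all libraries, −0.07 and −0.05 without DMSO library 4, and −0.211 for both without DMSO library 2. Kif20a, a kinesin that carries the passenger complex to the spindle midzone, had 152.7 and 155.2 TPM in the CBR-5884 libraries, compared with 152.9 and 156.6 TPM in the DMSO libraries, with 1 of the smallest spreads of the set. Anln (anillin), the scaffold of the contractile ring, averaged 112 ± 3.99 TPM with CBR-5884 and 114 ± 9.80 TPM with DMSO (SD, n = 2).

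**Figure D3:**
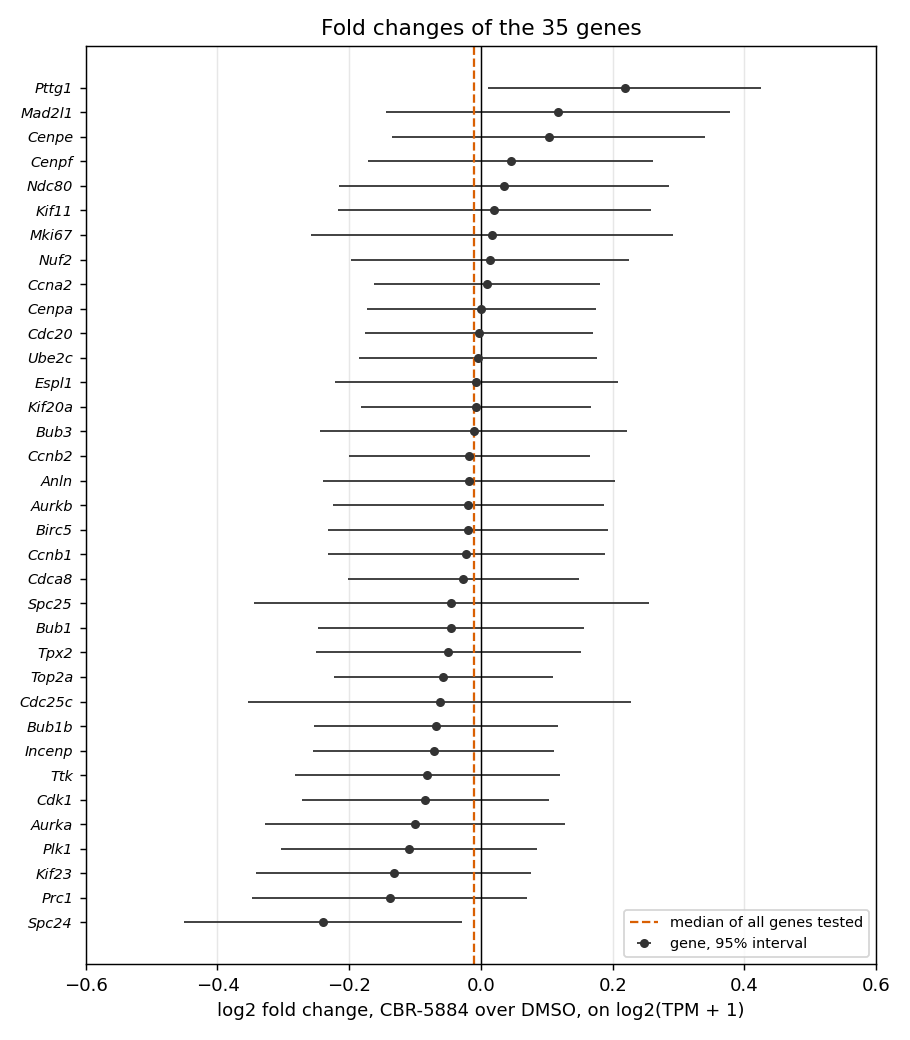
Log2 fold change of each gene, CBR-5884 over DMSO on log2(TPM + 1), with its 95% interval (limma), sorted from highest to lowest; the dashed line is the median over all 14920 genes tested. Pttg1 at 0.22 and Spc24 at −0.24 are the 2 intervals that leave out 0, and all intervals lie within ±0.5.

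Across the 35 genes the median log2 fold change was −0.0193, beside −0.0107 over all genes tested. It was −0.0225 over the 6700 tested genes in the same range of mean TPM. Fold changes were negative for 25 of the 35 (71.4%), beside 52.8% of all genes tested and 58.1% of the genes of that range. This count followed the scaling: it was 14 of 35 (beside 45.9% of all genes) when libraries were set to equal totals and 20 of 35 (beside 49.3%) at an equal upper quartile. Both CBR-5884 libraries were lower than both DMSO libraries for 11 genes (31.4%), beside 17.7% of all genes tested. They were higher for 1 gene (2.86%), beside 13.6% of all genes tested. Among the genes of the same range of mean TPM, 20.8% were lower and 11.0% higher in this way. With equal totals the counts of lower and higher genes were 5 and 3, and with an equal upper quartile they were 7 and 5. The shares over all genes at these scalings were not computed, so these counts cannot be set against a background. The summed level of the 35 was 4757 and 4816 TPM in the CBR-5884 libraries, against 4889 and 4851 TPM in the DMSO libraries. As a share of each library's TPM the sum was 0.477 and 0.498% with CBR-5884 and 0.487 and 0.486% with DMSO, so the DMSO shares lay between the CBR-5884 shares.

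The intervals of these genes were narrow beside those of other genes. For the 35 genes the 95% interval had a median half-width of 0.21 (log2 scale) against 0.37 for all tested genes; for the 6700 tested genes in the same range of mean TPM it was 0.25. The median absolute log2 fold change was 0.05 for the 35 genes, 0.07 for the genes of that range and 0.11 for all tested genes. The least variable genes over the 4 libraries were Ccnb2, Kif20a and Ccna2, with coefficients of variation of 1.12, 1.20 and 1.48%, and the most variable were Spc24 at 10.4% and Spc25 at 10.4%. The number of reads behind each gene is not given, because reads could not be recovered from the scaled values.

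For 16 of the 35 genes (45.7%) the gap between both CBR-5884 libraries exceeded the difference between the group means (log2 scale), and for 28 (80.0%) the gap between both DMSO libraries did. Among tested genes in the same range of levels these shares were 61.8% for CBR-5884 and 62.5% for DMSO. At least 1 of the gaps was the larger for 30 of the 35 genes (85.7%), beside 79.5% in that range. The median gap between the CBR-5884 libraries was 0.04 for the 35 genes, against 0.10 between the DMSO libraries; for tested genes in the same range of levels it was 0.11 in both conditions. The DMSO gap was the larger for 27 of the 35 genes (77.1%), beside 52.0% of the genes of that range. DMSO library 4 was higher than DMSO library 2 for 16 of the 35 genes, so the gap had no common direction.

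**Figure D4:**
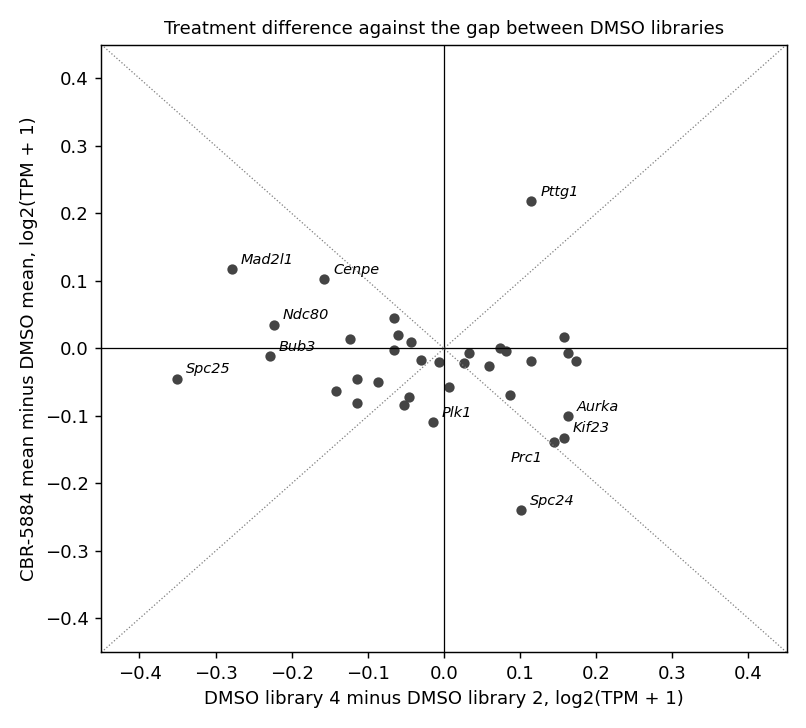
Each point is 1 of the 35 genes: the x axis gives DMSO library 4 minus DMSO library 2 and the y axis the CBR-5884 mean minus the DMSO mean, both on log2(TPM + 1). Dotted diagonals mark equal size; 28 genes lie in the left and right sectors, where the gap between DMSO libraries is the larger, and Pttg1, Spc24 and Plk1 are among the 7 outside them.

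Other genes of the same machinery also gave 0 calls, in lists of inner kinetochore, outer kinetochore and checkpoint, anaphase-promoting complex, condensin, spindle and cytokinesis, and regulatory genes. The 17 genes of the inner kinetochore and of Cenpa loading had a median log2 fold change of 0.08, with 13 positive and 4 negative, and 1 had an unadjusted p under 0.05. That was Cenpm, a subunit of the inner kinetochore network, with 41.5 and 44.4 TPM in the CBR-5884 libraries, against 54.4 and 49.3 TPM in the DMSO libraries (log2 fold change −0.27, limma adjusted p = 0.998). Cenpu, of the same network, had 46.5 and 43.3 TPM in the CBR-5884 libraries, compared with 38.6 and 42.6 TPM in the DMSO libraries. The 18 outer kinetochore and checkpoint partners had a median of −0.01, with 8 positive and 10 negative; Mis12, of the complex that anchors Ndc80, had a log2 fold change of −0.23, and Zwilch, of the complex that brings dynein to kinetochores, 0.17. The 17 genes of the anaphase-promoting complex and its regulators had a median of 0.01, with 9 positive and 8 negative, among them the subunits Cdc23 at −0.14 and Anapc7 at 0.12. The 8 condensin subunits had a median of 0.04, with 5 positive and 3 negative, among them Ncapg at 0.16 and Smc2 at −0.12.

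The 22 other spindle and cytokinesis genes had a median log2 fold change of −0.05, with 6 positive and 16 negative. Kifc1, a kinesin that gathers spindle poles, had 69.0 and 60.5 TPM in the CBR-5884 libraries, against 81.7 and 78.2 TPM in the DMSO libraries, the 1 gene of this list at an unadjusted p under 0.05 (log2 fold change −0.30, limma adjusted p = 0.998). Ect2, the exchange factor that starts the cleavage furrow, had a log2 fold change of −0.19. The 15 tested regulators of mitotic genes and entry had a median of −0.07, with 3 positive and 12 negative. Pkmyt1, a kinase that keeps Cdk1 inactive before mitosis, had 19.9 and 19.5 TPM in the CBR-5884 libraries, against 15.0 and 13.8 TPM in the DMSO libraries (log2 fold change 0.43, limma adjusted p = 0.998). Both libraries with CBR-5884 were higher, and it was the 1 gene of this list at an unadjusted p under 0.05; E2f8, a repressor of the E2F family, had a log2 fold change of −0.29. At equal library totals the median of the outer kinetochore and checkpoint partners was 0.01 with 10 of 18 positive. The regulators kept a negative median, −0.04, with 6 of 15 positive. Medians of the other 4 lists also kept their sign at equal totals, and the median of all genes was 0.01. When 1 library was left out, the median ran from −0.014 to 0.036 for condensin, from −0.0057 to 0.044 for the anaphase-promoting complex and from 0.0091 to 0.098 for the inner kinetochore.

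Markers of germ cells and of other testis cells were both present, and the share of RNA from each was not estimated. Dazl and Ddx4, both germ cell RNA-binding proteins, averaged 901 ± 6.13 and 362 ± 4.28 TPM with CBR-5884, against 894 ± 3.40 and 350 ± 26.6 TPM with DMSO (SD, n = 2). The 8 germ cell markers summed to 2393 and 2367 TPM in the CBR-5884 libraries, compared with 2485 and 2436 TPM in the DMSO libraries; 7 were tested and 0 called. Stra8, a gene of the entry into meiosis, had 376 and 323 TPM in the CBR-5884 libraries, against 476 and 399 TPM in the DMSO libraries (log2 fold change −0.32, interval −0.61 to −0.03, limma unadjusted p = 0.0338, adjusted p = 0.998). Kit, a receptor of differentiating germ cells, had a log2 fold change of −0.30 (interval −0.87 to 0.27), and its groups overlapped. The 20 markers of somatic testis and blood cells summed to 147 and 141 TPM in the CBR-5884 libraries, compared with 167 and 114 TPM in the DMSO libraries, where library 4 was the lowest. Of these 14 were tested and 0 called, with 9 log2 fold changes positive and 5 negative. The 2 of smallest p were Gata4, a Sertoli cell marker, at −0.27 and Col1a1 at 0.23. The other Sertoli cell markers, Sox9, Amh, Wt1 and Cldn11, had 0.03, 0.14, 0.14 and 0.09. They had 9.60, 38.5, 16.8 and 28.7 TPM in DMSO library 2, in that order. In DMSO library 4 they had 5.37, 16.6, 8.38 and 15.8 TPM, while Gata4 had 11.2 and 11.7 TPM in DMSO libraries 2 and 4. Insl3 was listed at 0 in both libraries numbered 4 and Hsd3b1 in DMSO library 4. The part of these cells in the values above was not tested. Estimated depth was 28200000 and 25300000 reads in the CBR-5884 libraries and 24600000 and 22500000 reads in the DMSO libraries. These depths are rough, because reads were not recovered. Phgdh, whose product the inhibitor is known to block, averaged 264 ± 1.53 TPM with CBR-5884 and 251 ± 13.3 TPM with DMSO (SD, n = 2); its mRNA does not report the activity of the enzyme.

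The split of reads is uncertain for a gene whose 31-base words occur in another gene of the table. For 4 of the 35 genes over 20% of the words did so. These were Ccnb1 with 27.8%, most of it in the pseudogene Ccnb1-ps, Cdc20 with 26.7%, most of it in the pseudogene Gm7856, Kif20a with 26.7%, in Cdc23 on the opposite strand, and Ube2c with 24.6%, most of it in Tnnc2 on the opposite strand. Cdc23 averaged 91.1 TPM over the 4 libraries, while Ccnb1-ps, Gm7856 and Tnnc2 averaged 0.05, 0.18 and 0.32 TPM. The sources used here do not say whether the quantification used strand. Below the 20% limit, Ccna2 shared 11.8% of its words with Exosc9 (mean 48.6 TPM) and Prc1 9.68% with Rccd1 (mean 24.1 TPM), both on the opposite strand. Plk1 shared 14.8% with Plk-ps1 (mean 3.78 TPM), and Cdc25c 11.8% with Gm3550 (mean 1.71 TPM). For 24 of the 35 genes the share of such words was under 5%.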

How the data were processed

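The tools fastp and kallisto and the build mm10 were used, per the submitters' processing notes; the sources used here give no settings. The table the authors deposited holds TPM and scaled reads per base for each gene and library; both are the authors' signal values, and 1 line per gene and library was kept. Library totals of TPM ran from 966761 to 1002976. Leaving genes out can only lower a total, and the highest lies above the per-million sum of TPM. Values were therefore altered after the conversion to TPM, whether or not genes were left out. Steps between low scaled reads gave the depths, but 34.4 to 35.6% of low values were whole multiples (tolerance 0.05), so reads were not recovered and no count test was run. The 14920 genes with a mean of at least 1 TPM were fitted on log2(TPM + 1) with limma-trend (R 4.3.3, limma 3.58.1; two-sided tests), all 4 libraries, no covariate; fold changes are on that scale and understate low genes. The table's library numbers 2 and 4 could not be matched to the titles' replicate numbers. With 2 against 2 libraries an exact permutation p cannot go below 0.33. The fit was tested on simulated data. The 35 genes and all lists were chosen with earlier results of these data known. All 35 are described; values per library are given for the 12 largest and 3 smallest fold changes and the most abundant gene of each role, and the 2 genes of smallest p are named from each other list, where 125 of 126 genes were found. The 4 printed promoter stretches and the statement on gaps within groups were chosen after values were seen. Gene positions and 31-base words come from GENCODE M21 (GRCm38), promoters from RefSeq. Alternatives were other pseudocounts (0.1 and 5), filters (none, 5 TPM), scalings, scaled reads, variance models, the table number as a block and leaving out each library; robust variances, genes with few shared words and non-overlap under other scalings were added after seeing the data.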

Additional observations from a re-analysis of the deposited data

How the results depend on the processing

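Under the 14 alternatives fitted, 0 of the 35 genes were called. Over all genes 1 was called with scaled reads per base and 1 with robust variances, and 0 otherwise. The median log2 fold change of the 35 genes was −0.02 as deposited. It was 0.0077 with equal totals, −0.0055 with an equal upper quartile and −0.0254 with scaled reads. The median over all genes tested moved alike, from −0.0107 as deposited to 0.0149, 0.0022 and −0.0168 in the same order. For the 35 genes it lay between −0.0331 and −0.0199 when 1 library was left out. The genes with a negative value numbered 14 with equal totals and 22 to 24 when 1 library was left out. The genes lower in both CBR-5884 libraries numbered 5 with equal totals and 7 with an equal upper quartile, and those higher 3 and 5. Shares over all genes were not computed at these scalings.

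Of the 35 genes, 13 kept their sign under every alternative fitted: Aurka, Bub1b, Cdk1, Incenp, Kif23, Plk1, Prc1, Spc24, Top2a, Tpx2 and Ttk negative, Cenpe and Pttg1 positive. The other 22 had values of at most 0.12 in size and changed sign at least once. The cause was not tested. Other filters, the table number as a block and other variance models leave each fold change as it was, so they could not change a sign. With equal totals, log2 fold changes were 0.0226 for Ube2c, 0.0199 for Kif20a, 0.0243 for Cdc20, 0.0073 for Birc5, 0.0077 for Aurkb, 0.0006 for Cdca8, 0.0095 for Ccnb2, 0.0087 for Anln, 0.0052 for Ccnb1, 0.0201 for Espl1 and 0.0160 for Bub3. With an equal upper quartile they were 0.0094 for Ube2c, 0.0067 for Kif20a, 0.0111 for Cdc20, 0.0069 for Espl1 and 0.0028 for Bub3. With scaled reads Cenpa had −0.0052.

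Leaving out 1 library gave −0.1054 to 0.0687 for Anln, −0.0765 to 0.0380 for Aurkb, −0.0924 to 0.0532 for Birc5, −0.1030 to 0.0119 for Bub1, −0.1255 to 0.1033 for Bub3 and −0.0125 to 0.0305 for Ccna2. It gave −0.1118 to 0.0679 for Ccnb1, −0.0355 to 0.0298 for Cdc20, −0.1335 to 0.0082 for Cdc25c, −0.0559 to 0.0029 for Cdca8, −0.0361 to 0.0375 for Cenpa and −0.0429 to 0.1334 for Cenpf. For Espl1 it gave −0.0887 to 0.0747, for Kif11 −0.0099 to 0.0507, for Kif20a −0.0239 to 0.0096, for Mad2l1 −0.0222 to 0.2564 and for Mki67 −0.1058 to 0.1393. For Ndc80 it gave −0.0770 to 0.1468, for Nuf2 −0.0476 to 0.0756, for Spc25 −0.2204 to 0.1303 and for Ube2c −0.0452 to 0.0363. Of the genes that kept their sign and are not given with such values beside their results, it gave −0.1232 to −0.0454 for Cdk1, −0.1098 to −0.0331 for Incenp, −0.0924 to −0.0062 for Tpx2, −0.1282 to −0.0896 for Plk1, −0.0634 to −0.0508 for Top2a, −0.2903 to −0.1894 for Spc24 and 0.1608 to 0.2754 for Pttg1.

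With the table number as a replicate block, 0 genes were called over all genes and 0 of the 35. Differences between the libraries numbered 2 and 4 correlated at 0.20 between the conditions across all tested genes and at 0.11 across the 35, which are not independent; with 2 pairs the numbers alone do not show that libraries were paired.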

Other observations

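Paralogs of the 35 genes that are known mainly from meiosis were at low levels, and were looked up after the data were seen. Ccna1, the cyclin A of meiotic cells, had 6.14 and 3.26 TPM in the CBR-5884 libraries, compared with 4.67 and 3.70 TPM in the DMSO libraries, against 215 TPM or more of Ccna2 in each library. Ccnb3, a cyclin B of meiosis, had 2.60 and 3.24 TPM with CBR-5884 and 2.60 and 1.87 TPM with DMSO, and Aurkc, an Aurora kinase of meiosis, had 2.99 and 1.47 TPM with CBR-5884 and 3.55 and 2.47 TPM with DMSO. Both were below the levels of Ccnb1, Ccnb2, Aurka and Aurkb in each library. Cdk2, the partner of cyclin A, averaged 80.1 ± 12.6 TPM with CBR-5884 and 84.0 ± 0.96 TPM with DMSO, and Plk4, the kinase of centriole duplication, averaged 45.1 ± 3.48 and 46.1 ± 1.91 TPM in the same order (SD, n = 2).

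The order of the 35 genes by level was close to the same in all libraries. Spearman's rho of the levels between any 2 libraries lay from 0.967 to 0.989 across the 35 genes, which are not independent replicates.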
